A study of Mus musculus with 6 samples.

Results

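B cell receptor signalling and B cell identity were followed through 35 genes: the 2 signalling chains of the receptor, 7 surface receptors and co-receptors, 4 tyrosine kinases, 4 adaptors, 7 enzymes, 2 subunits of the relay to NF-kappa B, 2 inhibitory phosphatases and 7 transcription factors or coactivators. The members were taken by gene name from the deposited gene tables, which hold 41325 gene rows, and all 35 were among the 18303 genes with enough reads to be tested. RNA-seq had been made from 6 libraries labelled salivary gland of female ICR mice, an outbred stock, labelled as 10 weeks old. All mice of both groups had received intraperitoneal 5-fluorouracil (5-FU), an antimetabolite used in chemotherapy, at 20 mg/kg per day, 2 injections a week for 3 weeks, given per the labels to make the glands atrophy. The 3 elemental diet libraries came from mice also given by mouth Elental, an elemental diet of predigested nutrients, at 1.6 kcal in 0.8 mL per day. The 3 saline libraries came from mice given the same volume of saline by mouth, and no mice without 5-FU were analysed here. The labels give 3 animals per group but do not say that each library is a separate mouse. Each p-value therefore speaks of the spread among libraries, which may be technical.

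B cells read antigen with a surface immunoglobulin that has almost no cytoplasmic tail and signals through the CD79A and CD79B chains. LYN and other SRC-family kinases phosphorylate these chains, SYK docks on them, and the adaptor BLNK brings BTK and PLCG2 together, which leads to calcium release, protein kinase C beta and, through BCL10 and MALT1, to NF-kappa B. The transcription factors EBF1 and PAX5 set and hold B cell identity, and CD22, CD72, SHP-1 (Ptpn6) and SHIP1 (Inpp5d) restrain the signal. Several members serve other blood cells too: SYK, LYN, BTK, PLCG2, VAV1, SHP-1 and SHIP1 also act in myeloid cells, mast cells or platelets.

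The libraries held 29053287 to 33073125 reads assigned to genes, 86.0% to 87.7% of them unique, and the member with the fewest reads had 265 in its lowest library. Genes that define salivary epithelium were nearly absent: of 12 listed, Smgc, Pip, Bpifa1 and Dcpp1 had no read in any library, and 1 reached 1 read per 1000000 (CPM) in every library. The protocol text names fibroblasts or keratinocytes as the RNA source, so the tissue label is given here as the labels have it. Red cell genes were abundant, with hemoglobin genes taking 3.43% ± 0.12 of reads in elemental diet libraries and 0.370% ± 0.0997 in saline libraries (SD, n = 3 each). The groups differed at most genes: edgeR's quasi-likelihood test with Benjamini-Hochberg adjustment at 0.05 called 6951 genes higher and 7352 lower with elemental diet, and 5407 higher and 9265 lower with library totals in place of composition scaling.

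Of the 35 members, 34 fell and 1, Dapp1, rose with elemental diet, where 40.2% of all tested genes were called lower and 38% higher (edgeR, adjusted p at 0.05). The largest adjusted p among the members was 0.00011. The median log2 fold change of the members was -2.39, against -0.08 over all tested genes. In 34 members every elemental diet library lay below every saline library in CPM scaled by the trimmed mean of M-values (TMM), as for 41.9% of all tested genes. The fall was over 4-fold in 26 members, a size reached by 9.15% of all tested genes, and it lay between 2-fold and 4-fold in 5 members and under 2-fold in 3. Summed over the members, the level was 2845 ± 21.5 CPM in elemental diet libraries and 12082 ± 244 CPM in saline libraries, 4.25-fold lower (SD, n = 3 each; exact permutation test, two-sided, p = 0.1, the smallest that 3 against 3 allows). Without that scaling, the members held 0.256% of reads in elemental diet libraries and 1.34% in saline libraries, 5.26-fold lower. Levels in bulk samples are shares of each library's reads. Fewer B cells, less RNA per B cell and more RNA from other cells therefore cannot be told apart.

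**Figure D1:**
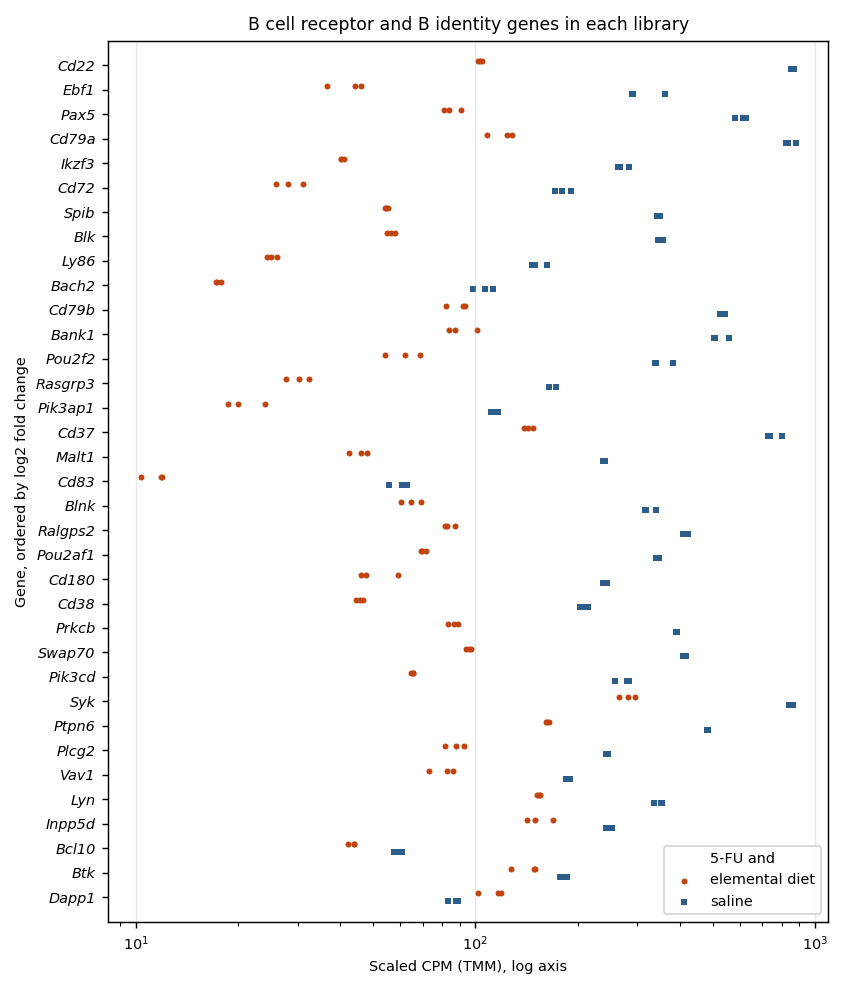
Scaled CPM (TMM) of the 35 members on a log axis, 1 point per library, with genes ordered by log2 fold change. Circles of the elemental diet lie left of the squares of saline in 34 genes, and Dapp1, at the bottom, has the opposite order.

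The receptor's signalling chains were among the members that fell most. Cd79a (chr7:24897381-24902197, plus strand, GRCm38) had 128, 124 and 108 CPM in elemental diet libraries, against 877, 823 and 835 CPM in saline libraries. The log2 fold change was -2.81 ± 0.06 (SE), 7.04-fold lower, with an edgeR adjusted p of 1.3e-13. Cd79b (chr11:106311341-106314762, minus strand), its partner chain, had 92.1, 93.3 and 82.0 CPM in elemental diet libraries, against 542, 528 and 524 CPM in saline libraries. Cd79b was 5.96-fold lower, and neither gene's groups overlapped. Per length, these were the highest members in both groups: Cd79a averaged 203 TPM in elemental diet libraries and 1897 TPM in saline libraries, and Cd79b averaged 150 TPM and 1183 TPM in the same order. The balance of the chains differed between the groups: Cd79a had 1.39, 1.33 and 1.32 reads for each Cd79b read in elemental diet libraries, against 1.62, 1.56 and 1.59 in saline libraries, without overlap (exact permutation p = 0.1, the smallest possible).

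All 7 surface members fell, and Cd22 fell more than any other member. Cd22, a sialic acid-binding co-receptor that recruits SHP-1 to dampen the signal, had 105, 103 and 102 CPM in elemental diet libraries, against 866, 852 and 853 CPM in saline libraries. Its log2 fold change was -3.05 ± 0.05, 8.28-fold lower (edgeR adjusted p = 4.7e-15). The libraries of a group lay far closer to each other than the groups did. Cd72, another inhibitory co-receptor, was 6.37-fold lower, and the tetraspanin Cd37 was 5.28-fold lower. Cd180, the TLR-like receptor that modulates B cell responses to lipopolysaccharide, had 47.7, 46.1 and 59.3 CPM in elemental diet libraries, against 243, 237 and 238 CPM in saline libraries, and its secreted partner MD-1, encoded by Ly86, was 6.11-fold lower. Cd38, an ADP-ribosyl cyclase of the B cell surface, and Cd83, an activation marker, were 4.58-fold and 5.25-fold lower. Cd180 and Cd72 share genomic sequence with a gene on the other strand, Mast4 and Tesk1. Over its whole length, Mast4 was given reads equal to 121% of the Cd180 reads in elemental diet libraries and 41.0% in saline libraries. Reads given to Tesk1 over its whole length equalled 71.7% and 16.6% of the Cd72 reads in the same order. Reads in the shared stretches alone were not counted. The sources used here do not say if strand was used in counting.

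The promoters of the chain gene and the co-receptor gene with the largest falls are shown. A link from the transcription factors described further on to these genes was not tested. The windows are RefSeq's, on GRCm38.p6, 250 bases before to 50 after the annotated start: chr7:24897247-24897546 on the plus strand for Cd79a and chr7:30878979-30879278 on the minus strand for Cd22. Capitals mark matches, on either strand, to an E-box of the E2A type (CAGGTG), an ETS core of the PU.1 and SPI-B type (GAGGAA) or an EBF core (CCCNNGGG).
Cd79a: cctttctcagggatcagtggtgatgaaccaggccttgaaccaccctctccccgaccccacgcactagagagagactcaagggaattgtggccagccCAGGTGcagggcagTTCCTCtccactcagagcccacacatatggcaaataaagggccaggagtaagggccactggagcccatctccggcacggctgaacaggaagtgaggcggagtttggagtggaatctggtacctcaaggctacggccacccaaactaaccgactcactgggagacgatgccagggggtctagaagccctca
Cd22: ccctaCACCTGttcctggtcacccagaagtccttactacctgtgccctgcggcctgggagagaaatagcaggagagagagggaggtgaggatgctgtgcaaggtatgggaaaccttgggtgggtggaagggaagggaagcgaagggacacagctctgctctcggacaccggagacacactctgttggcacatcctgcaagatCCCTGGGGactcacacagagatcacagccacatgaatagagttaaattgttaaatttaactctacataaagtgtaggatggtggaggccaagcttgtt
The Cd79a window held an E-box 154 bases and an ETS core 140 bases before the RefSeq start. The Cd22 window held an E-box 245 bases and an EBF core 48 bases before its RefSeq start. As counted, Cd79a begins at 24897381 and Cd22, on the minus strand, at 30880342, so both RefSeq starts lie inside the counted genes. Over the 36 RefSeq windows of the 29 members found in the table, 44.4% held the E-box, 36.1% the ETS core and 16.7% the EBF core, beside 20.2%, 28.3% and 13.7% of all 32851 windows. These matches are descriptions of letters and not of bound sites. Only exact matches were marked, so a site with other letters would be missed.

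The kinases separated by how far they fell. Blk, a SRC-family kinase largely of B cells, had 55.0, 56.3 and 57.8 CPM in elemental diet libraries, against 357, 346 and 351 CPM in saline libraries, 6.24-fold lower. Syk, the kinase that docks on the phosphorylated chains, had 265, 282 and 296 CPM in elemental diet libraries, against 839, 862 and 843 CPM in saline libraries, 3.02-fold lower. Lyn, which starts the signal and also feeds the inhibitory receptors, had 152, 154 and 155 CPM in elemental diet libraries, against 354, 353 and 337 CPM in saline libraries, 2.26-fold lower. No elemental diet library overlapped a saline library for these 3 kinases. Btk, the TEC-family kinase that activates PLCG2 and is mutated in X-linked agammaglobulinemia, had 127, 148 and 150 CPM in elemental diet libraries, against 186, 180 and 178 CPM in saline libraries. Its log2 fold change was -0.36 ± 0.06, only 1.28-fold lower (edgeR adjusted p = 0.00011), and it did not pass a test against a 1.5-fold change. By TPM, Btk ranked 5 among the 35 members in elemental diet libraries and 16 in saline libraries.

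**Figure D2:**
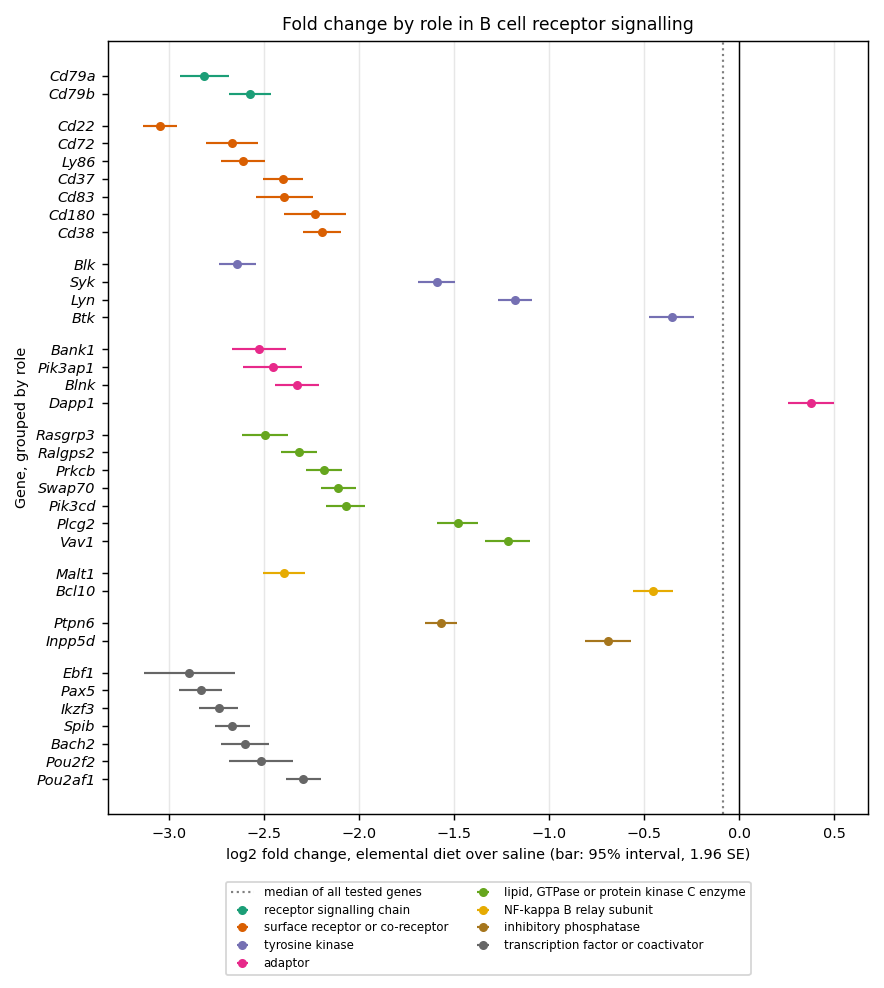
Log2 fold change of each member, elemental diet over saline, with bars for the 95% interval, grouped by role, and the median of all tested genes as a dotted line at -0.08. The 7 transcription factors lie between -2.89 and -2.29, whereas the tyrosine kinases run from -2.64 for Blk to -0.36 for Btk and the adaptor Dapp1 alone lies above 0.

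Among the adaptors 3 fell and 1 rose. Blnk, the scaffold for BTK and PLCG2, had 69.1, 64.6 and 60.3 CPM in elemental diet libraries, against 340, 316 and 319 CPM in saline libraries, 5.02-fold lower. Bank1, a B cell scaffold that links LYN to calcium release, was 5.77-fold lower, and Pik3ap1 (BCAP), which couples the receptor to phosphoinositide 3-kinase, was 5.49-fold lower. Bank1 overlaps Gm31243 on the other strand. Over its whole length, Gm31243 had reads equal to 16.6% of the Bank1 reads in elemental diet libraries and 1.93% in saline libraries. Bank1 also rests on the smallest share of unique reads of the members, 52.5%. Its log2 fold change was -2.53 with all reads and -2.53 with unique reads. Dapp1 (Bam32), an adaptor that binds phosphoinositides downstream of phosphoinositide 3-kinase, had 102, 117 and 119 CPM in elemental diet libraries, against 88.8, 83.1 and 88.0 CPM in saline libraries. The groups did not overlap, and the log2 fold change was 0.38 ± 0.06, 1.30-fold higher (edgeR adjusted p = 7.0e-05). The size depends on scaling: it was 0.07 with library totals alone and 0.10 with upper quartile scaling, neither called, and the authors' TPM values, 52.7, 57.7 and 57.6 in elemental diet libraries and 55.5, 52.6 and 54.2 in saline libraries, overlapped. Dapp1 ranked 9 of 35 by TPM in elemental diet libraries and 33 in saline libraries, with mean levels of 56.0 TPM and 54.1 TPM in the same order.

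The promoters of Blnk, which fell with most members, and Dapp1, which did not, are set beside each other. The RefSeq windows are chr19:40994172-40994471 for Blnk and chr3:137981500-137981799 for Dapp1, both on the minus strand, with the octamer (ATTTGCAT, the sequence known to be bound by the OCT2 protein of Pou2f2 and its coactivator from Pou2af1) added to the motifs above.
Blnk: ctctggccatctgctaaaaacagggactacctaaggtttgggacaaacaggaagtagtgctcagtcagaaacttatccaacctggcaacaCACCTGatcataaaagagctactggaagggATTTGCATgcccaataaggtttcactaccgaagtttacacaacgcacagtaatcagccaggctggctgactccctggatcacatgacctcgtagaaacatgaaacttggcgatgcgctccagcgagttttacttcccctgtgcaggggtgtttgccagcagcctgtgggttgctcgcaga
Dapp1: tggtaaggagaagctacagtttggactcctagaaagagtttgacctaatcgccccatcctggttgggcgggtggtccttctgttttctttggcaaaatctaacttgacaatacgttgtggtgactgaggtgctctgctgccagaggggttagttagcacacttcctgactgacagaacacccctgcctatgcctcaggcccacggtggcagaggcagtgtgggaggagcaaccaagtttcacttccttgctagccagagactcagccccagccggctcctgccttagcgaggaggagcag
Blnk held an octamer 130 bases and an E-box 160 bases before the RefSeq start. The Dapp1 window held none of the 4 motifs, which says only that these letters are not in it. The windows of Pax5, Bach2, Cd38, Ly86 and Cd180, which all fell over 4-fold, held none of them either. Those of Btk and Bcl10, the members that fell least, held an ETS core and EBF cores in that order. A window without these motifs is therefore no mark of Dapp1. The octamer was found in 5.56% of the members' windows, those of Blnk and Prkcb, and in 1.74% of all windows.

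The 7 enzymes downstream of the kinases all fell, 5 of them more than 4-fold. Rasgrp3, a RAS exchange factor switched on by diacylglycerol, had 32.3, 27.8 and 30.3 CPM in elemental diet libraries, against 165, 172 and 172 CPM in saline libraries, 5.64-fold lower. Prkcb, the protein kinase C isoform of the receptor's NF-kappa B branch, had 86.4, 83.3 and 88.7 CPM in elemental diet libraries, against 392, 394 and 390 CPM in saline libraries, 4.55-fold lower. Neither gene's groups overlapped. The exchange factor Ralgps2 was 4.99-fold lower, Swap70, which acts on RAC in B cells and mast cells, 4.32-fold lower, and Pik3cd, the leukocyte p110 delta subunit of phosphoinositide 3-kinase, fell by 2.07 on the log2 scale. Plcg2, the phospholipase that produces the calcium signal, had 81.4, 87.8 and 92.9 CPM in elemental diet libraries, against 244, 246 and 242 CPM in saline libraries, 2.79-fold lower. Vav1, an exchange factor for RAC in most blood cells, had 73.2, 82.6 and 86.2 CPM in elemental diet libraries, against 190, 185 and 188 CPM in saline libraries, 2.33-fold lower. These 2 fell least among the enzymes and still did not overlap between groups.

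The partners that carry the signal to NF-kappa B both fell, with 95% intervals of the log2 fold change of -2.51 to -2.29 for Malt1 and -0.56 to -0.35 for Bcl10. Malt1, the paracaspase, had 47.9, 42.4 and 46.2 CPM in elemental diet libraries, against 237, 240 and 241 CPM in saline libraries, 5.26-fold lower. Bcl10, the filament-forming adaptor that binds it, had 43.8, 44.0 and 42.3 CPM in elemental diet libraries, against 57.6, 60.6 and 60.1 CPM in saline libraries. That is 1.37-fold lower (log2 fold change -0.45 ± 0.05, edgeR adjusted p = 3.1e-06), and it did not pass a test against 1.5-fold.

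Both inhibitory phosphatases fell. Ptpn6, which encodes SHP-1, had 163, 164 and 162 CPM in elemental diet libraries, against 486, 481 and 483 CPM in saline libraries, 2.97-fold lower. Inpp5d, which encodes SHIP1, the phosphatase recruited by the inhibitory Fc receptor, had 142, 150 and 169 CPM in elemental diet libraries, against 253, 243 and 247 CPM in saline libraries, 1.61-fold lower (log2 fold change -0.69 ± 0.06, edgeR adjusted p = 1.6e-07). The libraries of the groups stood apart for both. Fcgr2b itself, that Fc receptor and no member, was 9.14-fold lower.

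All 7 transcription factors and coactivators fell, between 4.90-fold and 7.44-fold. Pax5, the factor that commits cells to the B lineage, had 83.4, 90.8 and 80.7 CPM in elemental diet libraries, against 625, 612 and 581 CPM in saline libraries, 7.13-fold lower (log2 fold change -2.83 ± 0.06, edgeR adjusted p = 3.1e-14). Ebf1, which acts with it, had 46.2, 44.2 and 36.6 CPM in elemental diet libraries, against 363, 290 and 292 CPM in saline libraries, 7.44-fold lower with the largest standard error of the members, 0.12. Relative to its mean, Ebf1 spread more widely than Pax5 in both groups, and the groups still stood far apart. Ikzf3 (Aiolos) was 6.68-fold lower, Spib 6.36-fold lower and Bach2, a repressor that holds back plasma cell differentiation, 6.07-fold lower. Pou2f2 (OCT2) was 5.72-fold lower and its coactivator Pou2af1 (OBF-1) 4.90-fold lower. Bach2 had the lowest level per length of all members, 1.97 TPM in elemental diet libraries and 17.3 TPM in saline libraries.

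Each member was next set against the summed Cd79a and Cd79b reads of its own library, a ratio that needs no scaling between libraries. Of the 33 other members, 23 had a higher ratio in every elemental diet library than in any saline library, 3 had a lower one and 7 overlapped. Over the other tested genes 91% had a higher ratio without overlap and 1.43% a lower one, so a higher ratio is no mark of the members. With 3 libraries against 3, no exact permutation p can go below 0.1, so these are descriptions. The members that overlapped were Cd72, Blk, Bank1, Pik3ap1, Spib, Ikzf3 and Bach2, whose ratios differed between group means by at most 1.21-fold. Spib reads were 24.5%, 25.4% and 28.7% of the chain reads in elemental diet libraries, against 24.7%, 25.4% and 25.7% in saline libraries. The 3 with a lower ratio were Cd22, Ebf1 and Pax5, and Cd22 reads were 49.6% ± 3.51 of the chain reads in elemental diet libraries and 62.2% ± 1.10 in saline libraries (SD, n = 3 each).

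The ratios differed most between the groups for Dapp1, Btk, Bcl10 and Inpp5d. Syk, Ptpn6, Plcg2, Vav1 and Lyn had 2.20, 2.23, 2.37, 2.85 and 2.92 times as many reads per chain read in elemental diet libraries as in saline libraries, and Inpp5d 4.12 times. Bcl10 reads were 19.9%, 20.3% and 22.2% of the chain reads in elemental diet libraries, against 4.06%, 4.49% and 4.42% in saline libraries. Btk reads were 57.8%, 68.3% and 78.7% of the chain reads in elemental diet libraries, against 13.1%, 13.3% and 13.1% in saline libraries, 5.18 times as many by the means. Dapp1 reads were 46.3%, 53.8% and 62.6% of the chain reads in elemental diet libraries, against 6.26%, 6.15% and 6.47% in saline libraries, 8.61 times as many. The saline libraries were nearly alike in these ratios, and the elemental diet libraries spread more widely.

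**Figure D3:**
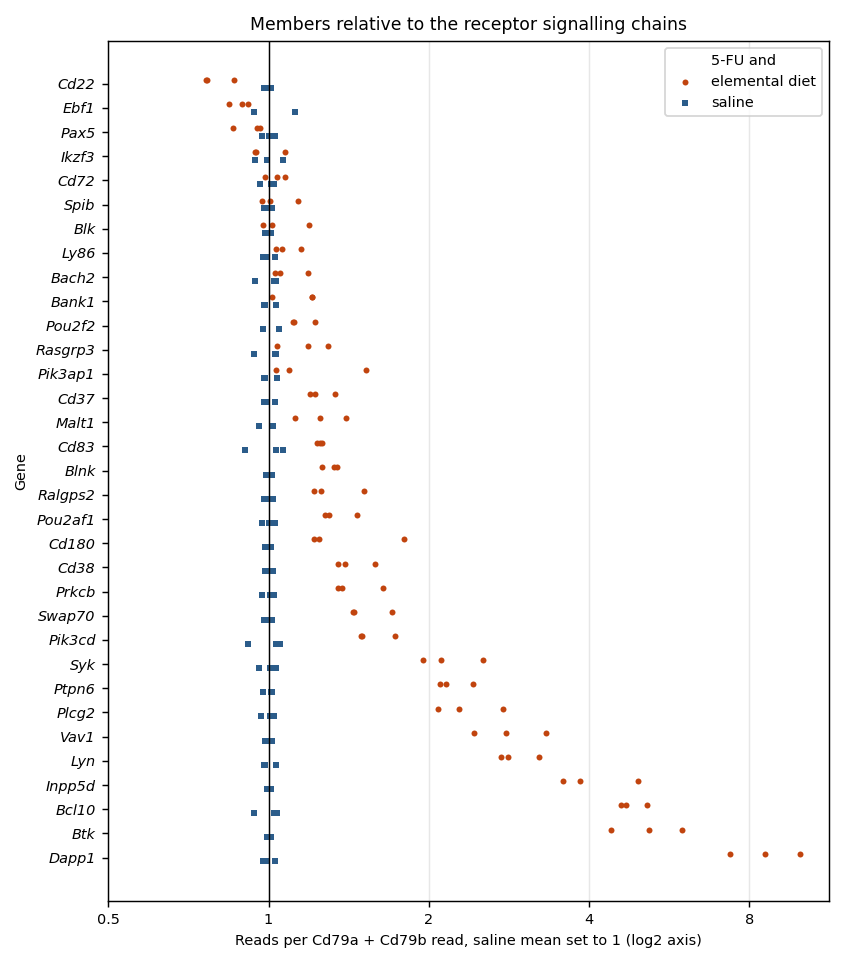
Reads of each member per Cd79a plus Cd79b read in each library, divided by the saline mean, on a log2 axis. Elemental diet circles lie left of 1 for Cd22, Ebf1 and Pax5, near 1 for Ikzf3, Cd72, Spib and Blk, and reach a mean of 8.61 for Dapp1.

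The files also split each gene's reads into exons and introns. Pooled over the members, introns held 19.5% ± 0.92 of reads in elemental diet libraries and 23.5% ± 0.77 in saline libraries (SD, n = 3 each; exact permutation p = 0.1), and over all genes 8.64% in elemental diet libraries, 5.36 percentage points below saline libraries. The share was lower without overlap in 22 of the 35 members, higher in 1 and overlapping in 12. Among 12774 genes with at least 50 reads in every library 60.7% were lower without overlap, so the members' count is near the background. The members differed among themselves: Btk had introns in 15.8% ± 1.12 of its reads in elemental diet libraries and 30.1% ± 1.90 in saline libraries, and Plcg2 had 14.6% ± 1.56 and 26.3% ± 1.84 as means in the same order. Malt1 had 20.2% ± 1.41 in elemental diet libraries and 20.3% ± 1.40 in saline libraries, and Spib and Pou2af1 overlapped as well. Prkcb, the exception, had 64.6% ± 0.44 in elemental diet libraries and 60.7% ± 1.55 in saline libraries. Tested on intron reads alone, 34 members again fell and Dapp1 again rose, with a member median of -2.07 on the log2 scale.

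**Figure D4:**
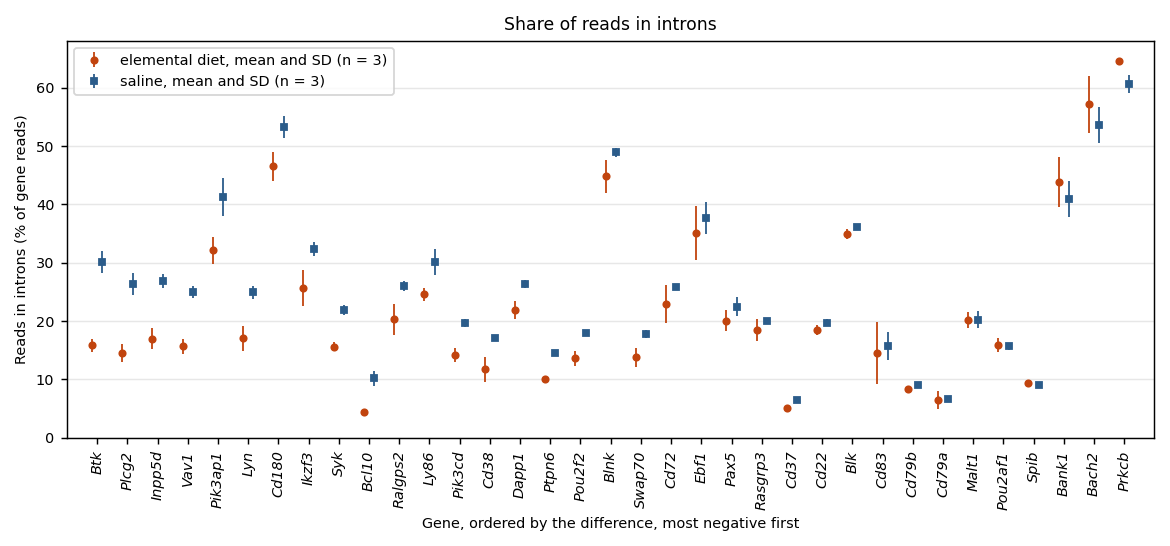
Share of each member's reads that lay in introns, as mean and SD of 3 libraries per group, with genes ordered by the difference. The share with elemental diet is lowest relative to saline at the left, where Btk has 15.8% and 30.1%, and lies above it at the right, where Prkcb has 64.6% and 60.7%.

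The rest of the pathway fell less uniformly than the members. Of 70 other genes of B cell receptor signalling, 45 fell, 18 rose and 7 did not pass, with a median log2 fold change of -0.66, and with library totals 54 fell and 13 rose. Among those with the smallest p were B cell surface genes and inhibitory adaptors. Cr2, a complement receptor of B cells, had 152 ± 3.62 CPM in elemental diet libraries and 1213 ± 27.8 CPM in saline libraries as mean and SD. Fcgr2b, Lax1 and Dok3, which restrain signalling, were 9.14-fold, 7.64-fold and 5.20-fold lower. Of the 18 that rose, Hras, chosen here after its value was seen, had the largest log2 fold change, 2.14.

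Of 20 other B cell genes, 18 fell and 2 rose, with a median log2 fold change of -2.63. Cr2, Fcmr and Ms4a1 had the smallest p, and Ms4a1, which encodes CD20, had 126 CPM in elemental diet libraries and 766 CPM in saline libraries as means. Those that rose were Tcf3, the E2A gene, by 0.43 and Bcl11a by 0.29 on the log2 scale, both active in other blood progenitors too, and with library totals 1 of these rises was called. Of 8 early B cell genes 4 could be tested. Il7r, the interleukin 7 receptor gene that T cells also use, fell, with means of 9.43 CPM in elemental diet libraries and 92.6 CPM in saline libraries, and Sox4, active in many progenitors, rose, with 26.3 CPM and 13.9 CPM in the same order. Dntt and Vpreb1 did not pass, and Rag1 and Vpreb2 had no read in any library. Of 10 plasma cell genes, 8 fell and Sdc1 rose. Jchain, the immunoglobulin joining chain, was 4.31-fold lower, Irf4 5.78-fold and Xbp1 2.30-fold.

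Most T cell genes fell as well. Of 20 genes listed as counterparts in T cell receptor signalling and T cell identity, 17 fell, 1 rose and 2 did not pass. Their log2 fold changes ran from -3.44 to 0.57 with a median of -2.65, and their summed level was 2.43-fold lower. All 9 T cell markers and all 6 NK cell markers fell. The counterparts with the smallest p were Rasgrp1, the T cell relative of Rasgrp3, 5.11-fold lower, and Lck, the SRC-family kinase of T cells, 5.28-fold lower. The members' falls were of a size that T cell genes also showed.

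Markers of several other blood cells rose while the members fell, and macrophage markers fell with them. All 9 erythroid markers rose, and their summed level was 37209 to 37952 CPM in elemental diet libraries and 2296 to 3551 CPM in saline libraries. Of 10 neutrophil markers 9 could be tested and all 9 rose, with summed levels of 237 to 275 CPM in elemental diet libraries and 10.4 to 12.9 CPM in saline libraries, where Mpo had 0, 2 and 11 reads. All 7 megakaryocyte and platelet markers rose (6 with library totals), with summed levels of 4017 to 5087 CPM in elemental diet libraries and 1678 to 1804 CPM in saline libraries. Of 8 basophil and mast cell markers, 6 rose (5 with library totals) and 2, Cma1 and Mcpt4, fell. The summed level of all 8 was 103 to 117 CPM in elemental diet libraries and 20.4 to 25.5 CPM in saline libraries. Kit alone had means of 56.9 CPM and 13.4 CPM in the same order. All 10 macrophage markers fell, with summed levels of 671 to 826 CPM in elemental diet libraries and 1633 to 1956 CPM in saline libraries. All 12 cell division genes rose, and their summed level was 5114 to 5950 CPM in elemental diet libraries and 194 to 206 CPM in saline libraries. Of 6 dendritic cell markers 4 rose and 2 fell, and of 6 stromal and adipocyte markers tested 1 rose and 2 fell. The part of these other cells in the members' values, those of Btk, Dapp1, Bcl10, Inpp5d, Lyn and Vav1 included, was not tested.

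**Figure D5:**
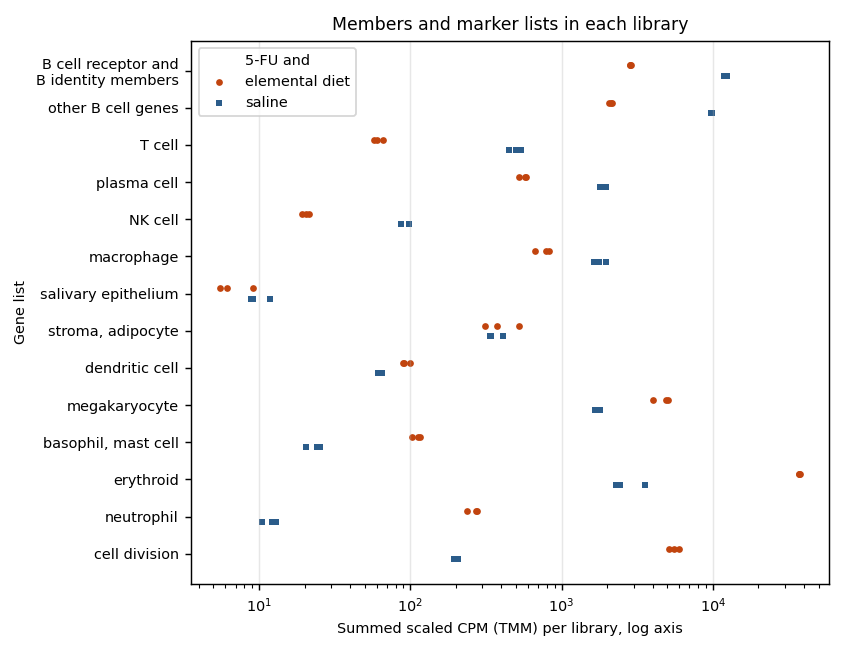
Summed scaled CPM of the members and of lists of marker genes in each library, on a log axis. The members and the B, T, plasma and NK cell lists lie lower with elemental diet, and the erythroid, neutrophil, megakaryocyte, basophil and cell division lists lie higher.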

How the data were processed

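Gene tables of 6 RNA-seq libraries, 1 per library, were used as deposited. Polyadenylated RNA had been sequenced from both ends with reads of 75 bases, per the labels. Per the file headers, the authors counted exon reads and intron reads for each gene, once for all reads and once for unique reads, and added a TPM value, used here for levels per length and for Dapp1. Neither the aligner nor the counting tool is named in the labels or headers. The builds GRCh37 and GRCm38 stand in the submitters' processing notes. Of the 35 members, 32 have the same coordinates in the GENCODE M21 annotation of GRCm38, and printed gene coordinates are the files' own.

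Total gene reads, reads shared between genes and intron reads included, were tested with edgeR 4.0.16 in R 4.3.3: filterByExpr, TMM scaling, a robust quasi-likelihood fit of both groups, a two-sided test and Benjamini-Hochberg adjustment over the 18303 genes kept, at 0.05. CPM values are reads per 1000000 after TMM scaling of library sizes. Ratios and intron shares were compared by exact permutation over the 20 arrangements of 6 libraries. Ratios carried 0.5 reads added to each side for the test. A count of 0 allows 3 reads, or 0.0907 to 0.103 CPM, which covers counting error only. Replicates differed by more than sampling noise and each counts as 1 sample. Promoters came from RefSeq's GRCm38.p6 table, which held 29 members. The fit was tested on simulated counts, where 5.03% of unchanged genes had an edgeR p under 0.05. Those counts held far fewer changed genes than these data, so scaling under a shift this wide was not tested. Alternatives were RLE, upper quartile and no composition scaling, other filters, DESeq2 1.42.0, other read classes, a 1.5-fold threshold, a replicate block and leaving out each library.

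All 35 members are accounted for. From other lists the 3 genes with the smallest p, or 6 for the rest of the receptor pathway, were to be named, and any other gene named was chosen after its values were seen or stands for a partner of a member. The members and lists were chosen with earlier results of these data known. A few results that the naming rule or the alternatives would give are not reported here.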

Additional observations from a re-analysis of the deposited data

How the results depend on the processing

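Over 17 alternative settings, member calls stayed on the same side in 590 member results and lost the call in 5, and none reversed. The lost calls were Dapp1 with library totals alone and with upper quartile scaling, and Btk, Bcl10 and Dapp1 against a 1.5-fold threshold. In those 3 settings 0 members were called higher by edgeR, also 0 at an unadjusted p under 0.05, and DESeq2 with its own size factors called 1. The member median was -2.70 with library totals, -2.66 with upper quartile scaling and -2.07 with intron reads, the last at a fold scale of its own; the all-gene median was -0.39, -0.35 and -0.08 with library totals, upper quartile and TMM scaling. Library totals called 5407 genes higher and 9265 lower, and upper quartile scaling 5601 and 9051, beside 6951 and 7352. Against 1.5-fold, 4432 genes were called higher and 4862 lower, and 4772 were called lower with intron reads. Leaving out each library gave member medians of -2.41 to -2.33 with 34 members lower each time. Replicate numbers paired the libraries weakly at most: Pearson r of deviations across genes was 0.12, -0.01 and 0.06 for replicates 1, 2 and 3. The value for replicate 1 was the highest of any pair, and elemental diet replicate 2 correlated best with saline replicate 3. The adipocyte marker Cidec had 154 reads in elemental diet replicate 1, 211 in saline replicate 1 and 0 in every other library. With the replicate block the counts were 6925 higher and 7316 lower, 34 members were lower and 1 higher, and the member median was -2.39. Ratios to the chains, as higher, lower and overlapping, were 24, 3 and 6 with unique reads, 25, 2 and 6 with exon reads, and 16, 3 and 14 with intron reads, an alternative chosen after seeing the data. The pooled intron share differed by -4.08 percentage points, elemental diet minus saline, and by -4.32 with unique reads. Levels are shares of each library's reads, so no absolute amount of RNA is given.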
